A study of Mus musculus with 18 samples.

Results

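The genes described are a set of 10 that store, import, export or recycle iron and heme. They were chosen by name from the 20298 genes of the table, and all 10 were found there. They are the ferritin subunits *Fth1* and *Ftl1*, the importers *Tfrc*, *Steap3* and *Slc11a2*, the phagosomal transporter *Slc11a1*, the exporter *Slc40a1*, the heme transporter *Slc48a1*, the heme-degrading enzyme *Hmox1* and the biliverdin reductase *Blvrb*. RNA was sequenced from 18 libraries in 6 groups of 3. The groups were untreated Ly6C+ CCR2+ monocytes (day 0) and the monocyte-derived cells (MDCs) that had grown from them with GM-CSF at 20 ng/mL for 3 or 6 days, each from WT and from DKI mice. DKI mice are double knockin animals whose STAT5A and STAT5B carry N-domain mutations, so that STAT5 pairs into dimers but the dimers do not join as tetramers. All mice were on the C57BL/6 strain, which is known to carry a loss-of-function allele of *Slc11a1*. The monocytes were enriched by negative selection, which can leave other marrow cells in the culture. Whether each library came from 1 mouse or from a pool is not given in the sources used here, and p-values measure the spread between these libraries.

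The tissue is liver in the sample labels and bone marrow in the study's methods. The 4 hepatocyte markers summed to at most 0.047 RPKM (reads per kilobase of gene, scaled to the reads of the library) in any library. The libraries held 29.5 to 43.2 M reads (median 36.45 M). *Stat5a*, one of the mutated genes, was lower in DKI on day 3, at 9.37, 13.4 and 14.4 RPKM against 30.2, 58.0 and 39.7 in WT (log2 difference −1.67, SE 0.28, adjusted p = 0.0224). These levels do not show the knockin mutations themselves. *Stat5b* was at 12.6 to 16.5 RPKM in DKI and at 17.1 to 25.2 in WT on that day.

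Iron enters most cells bound to transferrin through the transferrin receptor (*Tfrc*), is reduced in the endosome by STEAP3 and leaves it through SLC11A2. Macrophages also take iron from engulfed red cells: SLC48A1 moves heme out of the phagolysosome, heme oxygenase 1 (*Hmox1*) opens the heme ring and frees the iron, and biliverdin reductases reduce the remaining pigment. The iron is then stored in ferritin, a cage of heavy (*Fth1*) and light (*Ftl1*) chains, or exported by ferroportin (*Slc40a1*). Iron-regulatory proteins control several of these mRNAs by binding a hairpin, the iron-responsive element. A hairpin before the coding sequence blocks translation when iron is scarce, and hairpins after it protect the mRNA from decay.

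Because this control acts on the RNA itself, the hairpins are shown first. A pattern was searched in the GENCODE M21 protein-coding transcripts of mm10. It asks for a bulged C, an upper stem of 5 pairs, the loop CAGTG followed by A, C or T, and at least 4 of 5 pairs in the lower stem, 27 bases in all, with G paired to T allowed. It was found in 24 of 21877 genes (0.11%), and 4 of these were among the 10 iron and heme genes. In the sequences below, in DNA letters along the transcript, the loop is in capitals.
*Fth1*, 5′ UTR, chr19:9982733-9982759, plus strand: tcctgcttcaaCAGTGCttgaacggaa
*Ftl1*, 5′ UTR, chr7:45459780-45459806, minus strand: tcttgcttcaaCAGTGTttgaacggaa
*Slc40a1*, 5′ UTR, chr1:45925466-45925492, minus strand: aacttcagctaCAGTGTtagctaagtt
*Tfrc*, 3′ UTR, chr16:32631220-32631246, plus strand: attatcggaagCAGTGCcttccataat
*Tfrc*, 3′ UTR, chr16:32631599-32631625, plus strand: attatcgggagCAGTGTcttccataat
*Tfrc*, 3′ UTR, chr16:32631664-32631690, plus strand: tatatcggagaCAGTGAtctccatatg
*Tfrc*, 3′ UTR, chr16:32631711-32631737, plus strand: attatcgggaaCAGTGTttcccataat
The matches in *Fth1*, *Ftl1* and *Slc40a1* lay within the first 117 bases of the first-listed transcript of each gene, before the coding sequence. In another *Fth1* transcript, with a longer 5′ UTR, the match lay at bases 659 to 685, also before the coding sequence. *Tfrc* held 4 matches, all after it. *Slc11a2*, *Slc11a1*, *Slc48a1*, *Steap3*, *Hmox1* and *Blvrb* held none, which says only that these letters were not in the transcripts searched. RPKM measures the amount of mRNA, so translation through the 5′ hairpins is not visible in these values.

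**Figure D1:**
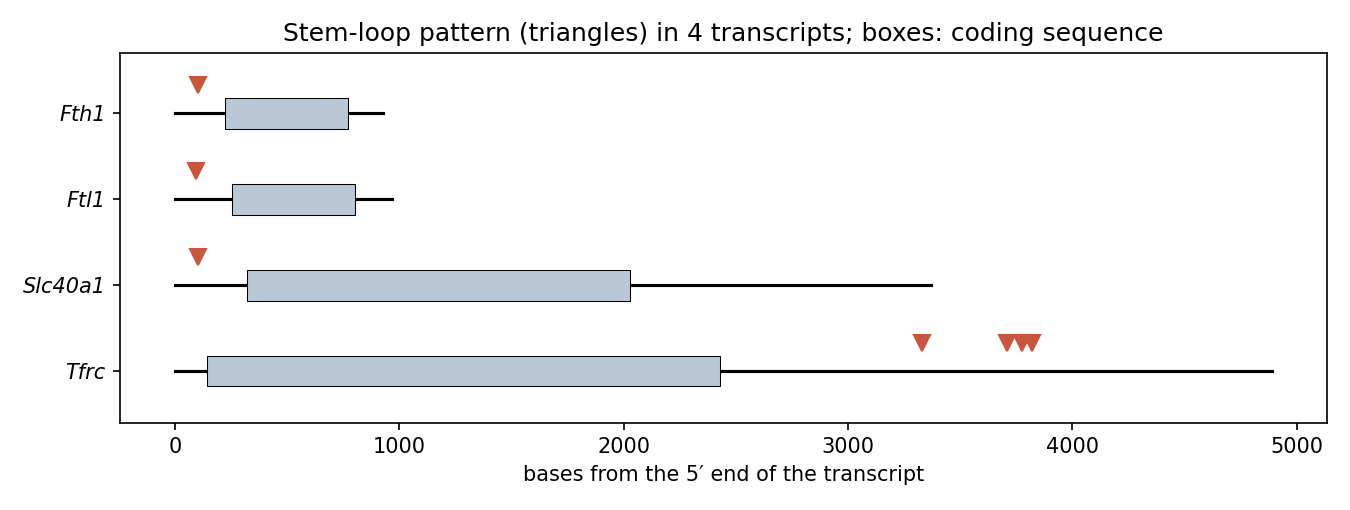
Position of the stem-loop pattern in 4 transcripts, in bases from the 5′ end, with the coding sequence as a box and each match as a triangle. *Fth1*, *Ftl1* and *Slc40a1* each have 1 match before the box and *Tfrc* has 4 after it.

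RefSeq promoter windows (GRCm38.p6, 250 bases before to 50 after a start) were found for 6 of the 10 genes, in 12 windows: *Slc11a1*, *Steap3*, *Blvrb*, *Ftl1*, *Tfrc* and *Fth1*. None of the 12 held the STAT motif TTCNNNGAA, which was present on either strand in 8.3% of 32851 windows, or the NRF2 and BACH1 motif TGACNNNGC, present in 12.4%. More than 1 match of the STAT motif, at any spacing, occurred in 0.457% of all windows. The loop letters CAGTG were found in the 50 bases after the start in 1 of the 12 windows and in 7.2% of all windows. No window was found for *Hmox1*, *Slc40a1*, *Slc11a2* or *Slc48a1*, so the promoters of these genes were not searched.

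On day 0 no difference between genotypes was larger than the spread of the libraries. The log2 differences of the 9 genes tested lay between −0.07 and 0.20, on the scale log2(RPKM + 1) that is used for every difference given here. The widest 95% interval, that of *Hmox1*, ran from −1.61 to 1.92. A gene was tested where its mean was above 2 RPKM in a group compared, and was called at an adjusted p under 0.05 and a fold above 1.5. *Slc40a1* was below that level in both genotypes and was not tested. By limma, 0 of 9179 genes of the table were called on day 0 (0%), 44 had an unadjusted p under 0.05, and voom on recovered read counts also called 0. With all 18 libraries in the fit limma called 6, none of them in the set. Of the 9 iron and heme genes, 0 had an unadjusted p under 0.05 with either method. When same-numbered libraries were blocked, 352 genes had one, 1 of the 9 among them (*Tfrc*, log2 difference 0.20), and 0 were called.

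On day 3 of GM-CSF *Hmox1*, *Slc40a1* and *Steap3* were higher in DKI, 3 of 10 genes against 7.42% of 9740 genes called in either direction. On day 6 *Hmox1* and *Steap3* were called higher, 2 of 10 against 7.54% of 9842. None of the 10 was called lower on either day. The median difference of the 10 was 0.76 on day 3 and 0.72 on day 6, beside −0.11 and −0.17 over all genes tested. The 3 libraries of each genotype did not overlap for *Slc40a1*, *Slc11a1*, *Slc11a2*, *Steap3* and *Hmox1* on both days, with DKI higher. These are 5 of 10 genes, where 36.3% of all genes tested on day 3 and 37.2% on day 6 did not overlap.

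**Figure D2:**
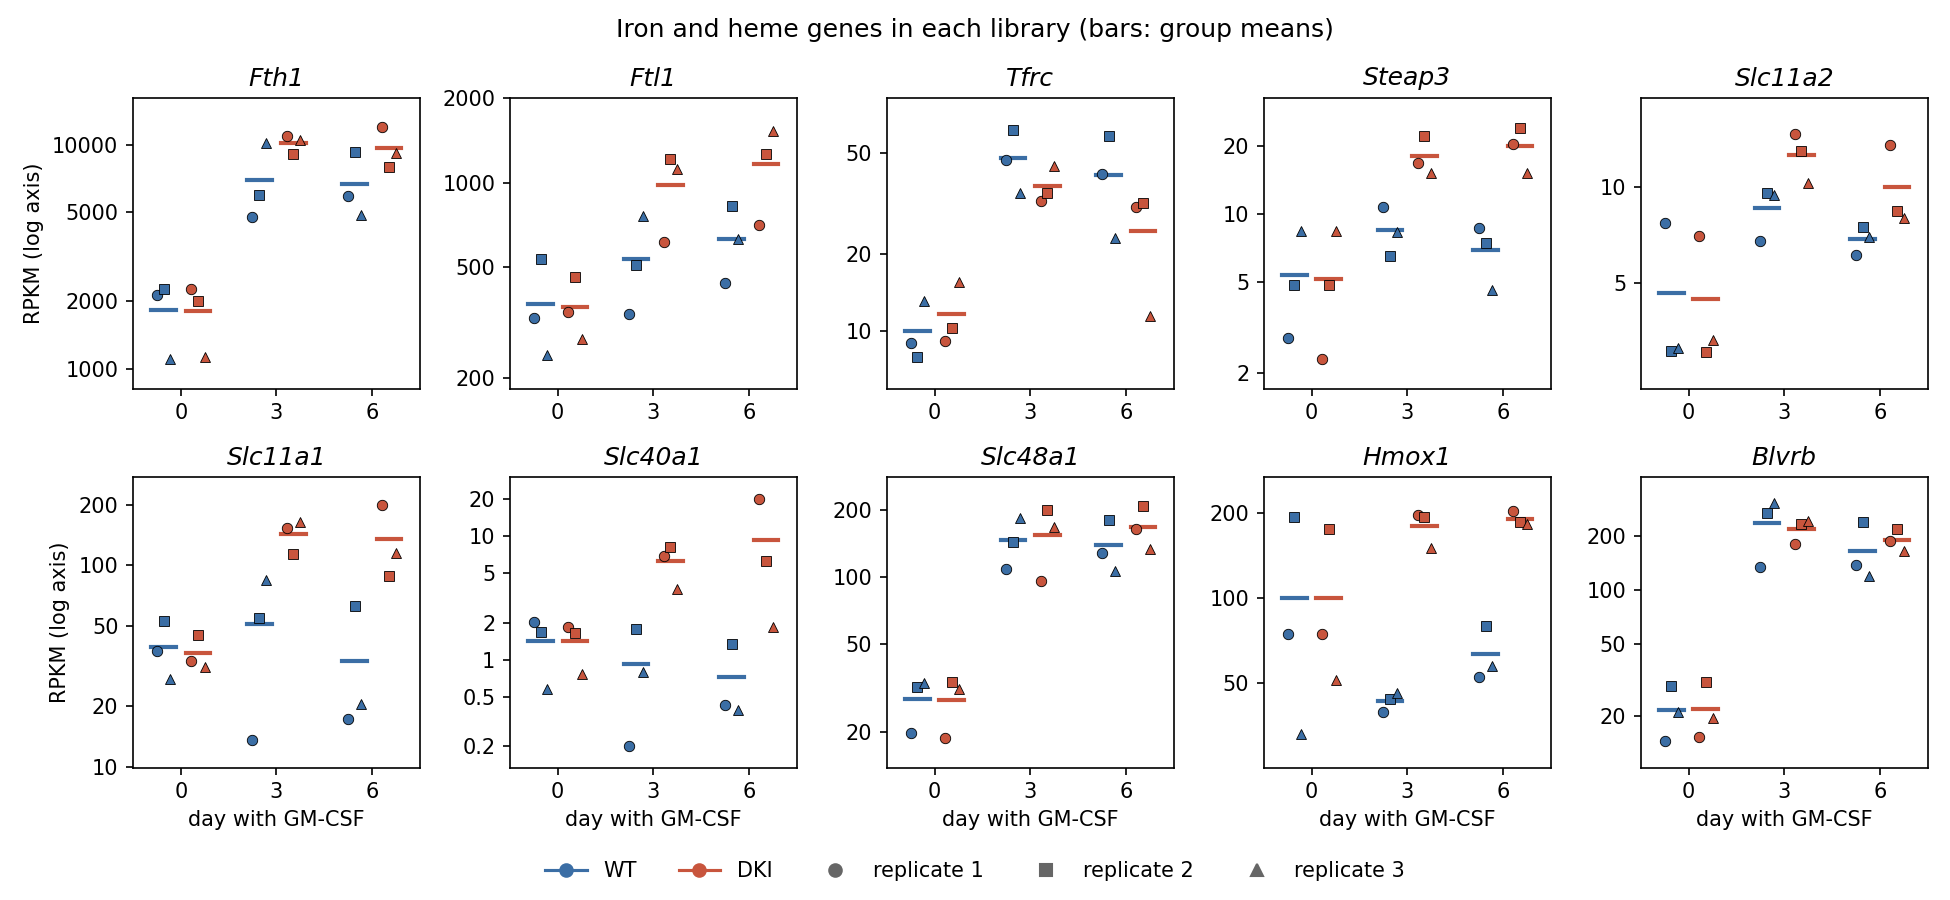
RPKM of the 10 genes in each library (log axis) by day, with WT in blue, DKI in red, a marker for each replicate number and bars for the group means. The genotypes lie together on day 0, and on days 3 and 6 every DKI library is above every WT library for *Steap3*, *Slc11a2*, *Slc11a1*, *Slc40a1* and *Hmox1*.

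*Hmox1* (Entrez 15368, chr8:75093618-75100593, mm10 as for all positions), the inducible heme oxygenase, was at 74.6, 193 and 32.97 RPKM in the WT monocytes and at 74.6, 174 and 51.0 in the DKI monocytes. On day 3 it was at 39.6, 43.8 and 46.1 in WT and at 196, 192 and 150 in DKI. The WT libraries had come together at a low level, while each DKI library was at more than 3 times the level of its same-numbered WT library. The log2 difference was 2.02 (SE 0.17, adjusted p = 0.00477, limma, n = 3 per group). On day 6 the levels were 52.6, 79.6 and 57.6 in WT and 203, 186 and 183 in DKI, a log2 difference of 1.60 (SE 0.20, adjusted p = 0.0143). The day 3 call held in all 6 fits that left out 1 library. The day 6 call was lost without WT replicate 1 (1.48, adjusted p = 0.0633), WT replicate 3 (1.54, adjusted p = 0.0606) or DKI replicate 3 (1.63, adjusted p = 0.058).

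The other heme genes were not called between genotypes. The heme transporter *Slc48a1* (Entrez 67739, chr15:97784365-97792692) was at 108, 144 and 184 RPKM in WT and at 95.2, 200 and 166 in DKI on day 3, and the genotypes overlapped. Its log2 difference was 0.05, with a 95% interval from −0.76 to 0.86. *Blvrb* (Entrez 233016, chr7:27447978-27465981), a reductase of the pigment that heme oxygenase leaves, was at 134, 267 and 303 RPKM in WT and at 180, 234 and 242 in DKI (log2 difference −0.03, interval −0.85 to 0.79). On day 6 *Slc48a1* was at 106 to 180 RPKM in WT and at 133 to 207 in DKI, and *Blvrb* at 120 to 239 and at 164 to 219. The log2 differences were 0.29 and 0.25, with DKI higher in 3 and 2 of the same-numbered pairs. Neither gene was called on that day (adjusted p = 0.504 and 0.603, limma).

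*Slc40a1* (Entrez 53945, chr1:45908070-45926532) encodes ferroportin, the iron exporter of vertebrate cells, and was the lowest of the 10 genes in all 6 groups. In monocytes it was at 2.02, 1.68 and 0.581 RPKM in WT and at 1.84, 1.63 and 0.761 in DKI. On day 3 the WT libraries held 0.201, 1.78 and 0.80 RPKM, and the DKI libraries 6.91, 8.19 and 3.76. These values rest on 24, 227 and 87 reads in WT and on 919, 1090 and 396 in DKI. Every DKI library was above every WT library, and the log2 difference was 1.95 (SE 0.39, adjusted p = 0.0363, limma). On day 6 WT was at 0.431, 1.34 and 0.391 RPKM and DKI at 20.0, 6.35 and 1.83. The DKI libraries now spread over more than 10 times, and the difference of 2.19 (SE 0.70) was not called (adjusted p = 0.101). With a pseudocount of 0.1 the day 3 difference was 2.93 and with voom on the reads 3.16, and neither was called (adjusted p = 0.0557 and 0.0735). The call was also lost in 5 of the 6 fits that left out 1 library (adjusted p up to 0.113), the exception being DKI replicate 3.

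Among the import genes, *Steap3* (Entrez 68428, chr1:120226414-120271081), the ferrireductase of the transferrin endosome, was higher in DKI. It was at 10.7, 6.55 and 8.34 RPKM in WT and at 16.9, 22.01 and 15.2 in DKI on day 3 (log2 difference 1.004, SE 0.22, adjusted p = 0.0451). On day 6 it was at 8.74, 7.46 and 4.62 in WT and at 20.5, 24.1 and 15.2 in DKI (1.41, SE 0.26, adjusted p = 0.0325). The groups were apart on both days, with the lowest DKI library at 15.2 RPKM each time. The day 3 call was lost without any 1 library (adjusted p 0.0671 to 0.134), with the replicate number as a block (adjusted p = 0.0885) and in a fit of all 18 libraries with a shared spread (adjusted p = 0.0821). The day 6 call was lost in 5 of 6 such fits (adjusted p up to 0.0985) but not with the block.

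*Tfrc* (Entrez 22042, chr16:32608896-32632794), the transferrin receptor, was the only gene of the set with lower means in DKI on both days. It was at 46.8, 61.4 and 34.8 RPKM in WT and at 32.2, 34.6 and 44.1 in DKI on day 3, and at 41.1, 58.0 and 23.2 against 30.7, 31.7 and 11.5 on day 6. The groups overlapped on each day, and the log2 differences of −0.33 and −0.74 were not called (adjusted p = 0.427 and 0.353). On day 6 DKI was lower in all 3 same-numbered pairs. *Slc11a2* (Entrez 18174, chr15:100387898-100424209), the divalent metal transporter of the endosome, was at 6.77, 9.58 and 9.45 RPKM in WT and at 14.7, 12.96 and 10.3 in DKI on day 3. The groups did not overlap, and the difference of 0.51 (SE 0.19) was not called (adjusted p = 0.162). On day 6 its values were 6.13, 7.51 and 6.98 in WT and 13.6, 8.43 and 7.999 in DKI, with the 2 lower DKI libraries close to WT.

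*Slc11a1* (Entrez 18173, chr1:74375014-74386057), also called NRAMP1, carries metal ions across the phagosome membrane. It was at 13.6, 54.8 and 84.9 RPKM in WT and at 153, 113 and 163 in DKI on day 3, and at 17.2, 62.8 and 20.5 against 199, 88.3 and 115 on day 6. The lowest DKI library was above the highest WT library on both days, but the WT libraries spread widely. The differences of 1.79 (SE 0.63) and 2.13 (SE 0.54) were not called in the fits of each day (adjusted p = 0.139 and 0.0623). In the fit of all 18 libraries, which lost *Steap3* on day 3, both were called (adjusted p = 0.046 and 0.0184). Leaving out WT replicate 2 of day 6 also brought that day's difference to a call (2.69, adjusted p = 0.0241). Without WT replicate 1, the lowest library, the day 3 difference was 1.04 (adjusted p = 0.152).

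The ferritin chains were the most abundant mRNAs of the set. *Fth1* (Entrez 14319, chr19:9980600-9985111) was at 4743, 5962 and 10182 RPKM in WT and at 10980, 9108 and 10488 in DKI on day 3, and at 5910, 9275 and 4874 against 11992, 8000 and 9222 on day 6. On day 3 the SD was 971 RPKM in DKI and 2854 in WT, and on day 6 it was 2045 and 2301. On each day 1 WT library reached the DKI range. The differences of 0.62 (SE 0.44) and 0.58 (SE 0.35) were not called (adjusted p = 0.416 and 0.326). *Ftl1* (Entrez 14325, chr7:45457944-45459886) was at 338, 507 and 757 RPKM in WT and at 613, 1211 and 1121 in DKI on day 3, and at 436, 826 and 627 against 707, 1260 and 1525 on day 6. On both days each same-numbered pair (3 of 3) had the higher value in DKI, and the differences of 0.89 (SE 0.41) and 0.86 (SE 0.38) were not called (adjusted p = 0.226 and 0.192). Both genes have near-identical processed pseudogenes, and how reads that match several places were counted is not given in the sources used here.

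**Figure D3:**
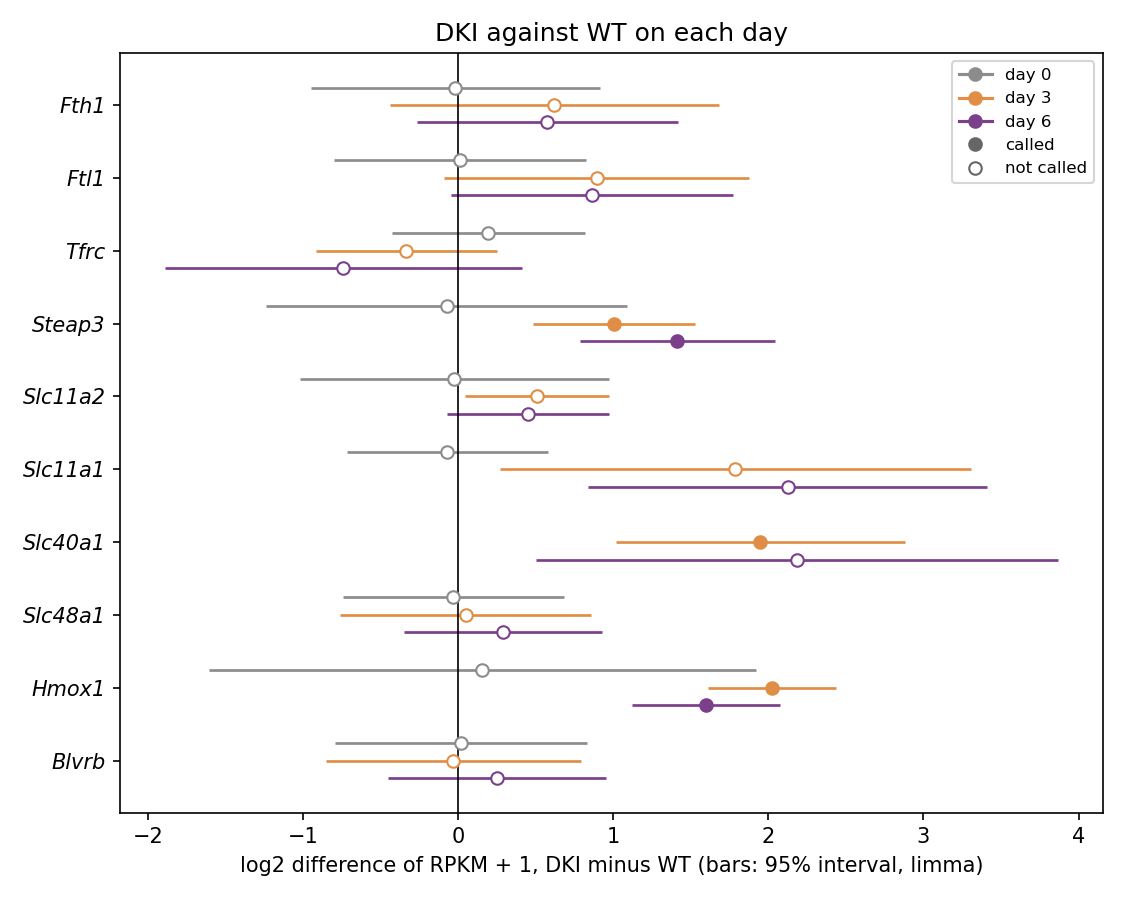
Log2 difference of RPKM + 1 between DKI and WT on days 0, 3 and 6 for each gene, with 95% intervals from limma and filled points where the gene was called. *Hmox1* and *Steap3* are called on days 3 and 6 and *Slc40a1* on day 3, while *Slc48a1* and *Blvrb* lie between −0.03 and 0.29.

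The ratio of *Fth1* to *Ftl1* RPKM was 5.11 ± 1.205 in WT and 5.03 ± 1.36 in DKI monocytes (SD, n = 3). On day 3 the WT ratio was 13.1 ± 1.19 and the DKI ratio 11.6 ± 5.54, and on day 6 they were 10.9 ± 2.91 and 9.79 ± 6.22. In DKI replicate 1 it was 17.9 and 16.96 on these days, whereas the other DKI libraries were between 6.05 and 9.36. The ratio was not tested.

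From monocyte to day 3 in WT, *Blvrb* rose by 3.35 on the log2 scale (SE 0.37), *Slc48a1* by 2.32 (SE 0.27), *Tfrc* by 2.13 (SE 0.26) and *Fth1* by 1.92 (SE 0.39). These were 4 of the 9 genes tested, and 43.1% of 9938 genes of the table were called. In DKI the same 4 rose by 3.31, 2.40, 1.60 and 2.56. *Slc11a1* (1.94), *Steap3* (1.73), *Slc40a1* (1.57), *Ftl1* (1.42) and *Slc11a2* (1.38) rose as well, which makes 9 of 10 genes where 34.2% of 9922 were called. None of the set was called lower in either genotype. After quantile normalization the WT change of *Fth1*, which is near the top of every library, was 0.89 and was not called (adjusted p = 0.0944), and without the filter on low values neither *Fth1* (adjusted p = 0.142 in WT and 0.335 in DKI) nor *Ftl1* (adjusted p = 0.0595 in DKI) was called. In WT, *Slc11a1* (0.08), *Steap3* (0.65), *Ftl1* (0.54) and *Slc11a2* (0.85) were not called (adjusted p = 0.925, 0.152, 0.278 and 0.067). Each genotype's change uses its own day 0 libraries.

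*Hmox1* was the only gene of the set that was called in neither genotype over this interval. Its mean went from 100.1 to 43.2 RPKM in WT (log2 difference −0.85, SE 0.56, adjusted p = 0.25) and from 99.99 to 179 in DKI (1.02, SE 0.44, adjusted p = 0.113). Its day 0 libraries differed widely within each genotype. Replicate 2 was the highest for *Hmox1* in both, at 193 and 174 RPKM, and also had the highest sum of erythroid markers, at 33.7 and 49.96 RPKM. The part of these markers in the *Hmox1* level was not tested. Without WT replicate 3 of day 0 the WT change was −1.46 and was called (adjusted p = 0.0275), and without DKI replicate 2 of day 0 the DKI change was 1.51 and was called (adjusted p = 0.0234). The *Ftl1* change in DKI was lost without day 0 replicate 1 or 3 or day 3 replicate 2 or 3 (adjusted p 0.0611 to 0.0741). Those of *Steap3* and *Slc11a2* in DKI were lost without day 0 replicate 2 (adjusted p = 0.0526 and 0.0555). In WT, *Slc11a2* was called without day 0 replicate 1 (1.21, adjusted p = 0.00533), and *Steap3* without day 0 replicate 3 (0.98, adjusted p = 0.0315). The fit of all 18 libraries also called *Slc11a2* in WT.

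**Figure D4:**
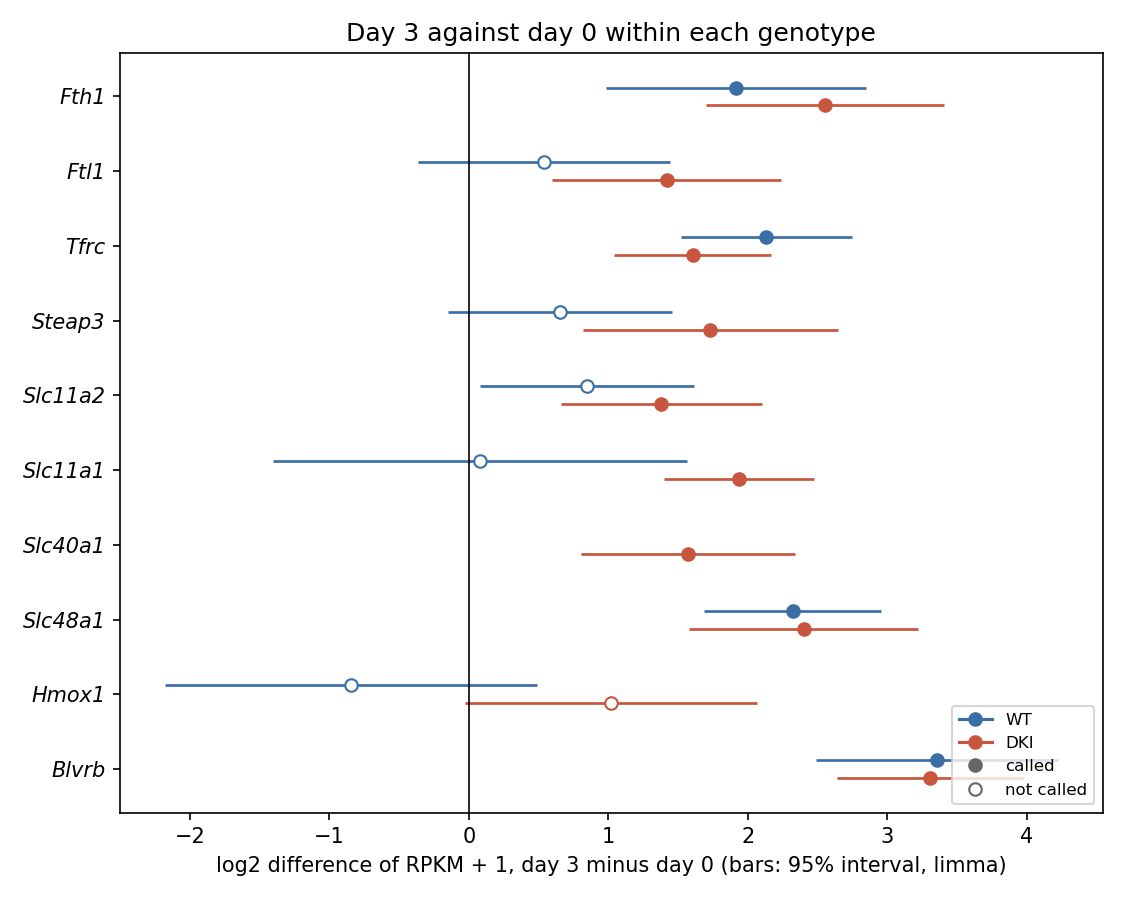
Log2 difference of RPKM + 1 between day 3 and day 0 in WT (blue) and DKI (red), with 95% intervals from limma and filled points where the gene was called. *Blvrb*, *Slc48a1*, *Tfrc* and *Fth1* are called in both genotypes, and *Slc40a1* in WT was not tested.

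Whether the genotype difference itself changed between days was tested as an interaction. Between day 0 and day 3, limma called 2.91% of 10212 genes and 0 of the 10. An unadjusted p under 0.05 was found for 3 of the 10 and for 1606 of the 10212 genes. Voom also called 0 of the 10. The difference of *Slc40a1* grew by 1.94 (SE 0.53, adjusted p = 0.0875) and that of *Hmox1* by 1.87 (SE 0.79, adjusted p = 0.281). With same-numbered WT and DKI libraries of a day as a block, both were called, *Slc40a1* with SE 0.35 (adjusted p = 0.0233) and *Hmox1* with SE 0.26 (adjusted p = 0.0108). These were 2 of the 10, and that fit called 10.2% of the 10212 genes. Between day 3 and day 6 limma called 0 of 9985 genes (0%), with 89 at an unadjusted p under 0.05, none of them in the set, and voom called 0.

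From day 3 to day 6 no gene of the set was called in either genotype. Limma called 0 of 9613 genes in WT (0%) and 0 of 9540 in DKI (0%), voom called 0 in each, and 722 and 93 genes had an unadjusted p under 0.05, with 1 and 0 of the set among them. In WT, limma called 16 genes with all 18 libraries in the fit and 1 without WT replicate 2 of day 6, all of them higher on day 6 and none in the set. The log2 differences of the set lay between −0.49 and 0.52 in WT and between −0.68 and 0.24 in DKI.

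In the library names, replicate 1 of both MDC days has an earlier year than the rest, and what the year marks is not given in the sources used here. The differences were compared within each year. For *Hmox1* the day 3 difference was 2.28 in the earlier pair and 1.89 in the later libraries, and on day 6 it was 1.93 and 1.43. For *Steap3* the values were 0.61 and 1.203 on day 3, and 1.14 and 1.55 on day 6. *Slc40a1* showed 2.72 and 1.56 on day 3, and 3.88 and 1.34 on day 6. *Slc11a1* showed 3.397 and 0.98, and then 3.46 and 1.46. For these 4 genes every DKI library was above every WT library on both days, so a positive sign within each year was fixed beforehand. *Fth1*, *Ftl1* and *Slc11a2* were also higher in DKI within both years on each day. With the libraries of the later year alone, *Hmox1* stayed called on day 3 (adjusted p = 0.0264) as 1 of the 10 genes, and 0 of the 10 were called on day 6.

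**Figure D5:**
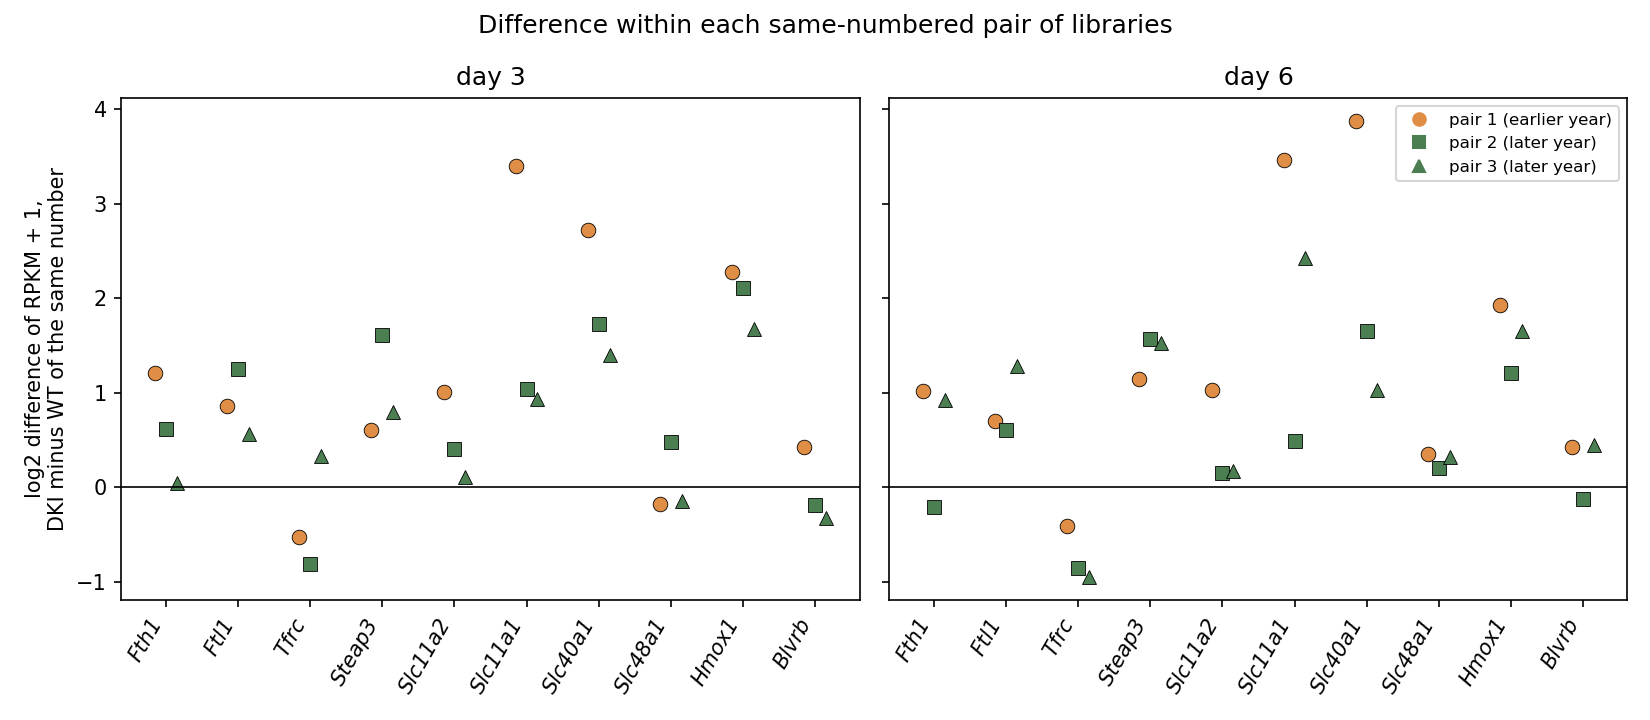
Log2 difference of RPKM + 1, DKI minus WT, within each same-numbered pair of libraries on days 3 and 6, with the pair of the earlier year in orange and those of the later year in green. All 3 pairs are above 0 for *Steap3*, *Slc11a2*, *Slc11a1*, *Slc40a1*, *Hmox1* and *Ftl1*, and *Slc11a1* and *Slc40a1* are largest in the earlier pair.

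DKI replicate 1 of day 3 and that of day 6, both of the earlier year, stood apart. On day 3 the monocyte marker *Ly6c2* was at 775 RPKM there and at 49.5 and 73.8 in the other DKI libraries, against 11.2 to 39.8 in WT. The monocyte marker *Ccr2* went the other way, at 32.5 RPKM in that library and at 82.96 to 395 in the other 5 of day 3. Without this library the day 3 difference was 1.95 for *Hmox1* (adjusted p = 0.00756), 1.86 for *Slc40a1* (adjusted p = 0.0706) and 1.04 for *Steap3* (adjusted p = 0.0671), so *Hmox1* alone remained called. On day 6 *Ly6c2* was at 158 RPKM in DKI replicate 1 and at 10.5 and 5.30 in the other DKI libraries, against 8.66 to 13.1 in WT, and *Slc40a1* had its highest value of all 18 libraries there. Without this library the day 6 difference was 1.55 for *Hmox1* (adjusted p = 0.0396), 1.38 for *Steap3* (adjusted p = 0.0758) and 1.45 for *Slc40a1* (adjusted p = 0.143), and again *Hmox1* alone was called. The 4 monocyte markers (*Ly6c2*, *Ccr2*, *Csf1r* and *Itgam*) summed to 758 to 1138 RPKM in WT and 1394 to 2239 in DKI on day 3. On day 6 the sums were 602 to 1068 and 1346 to 1596, and the genotypes did not overlap on either day. The study uses CD115, the product of *Csf1r*, as a macrophage-associated marker, so these sums do not measure monocytes alone. Day 3 means in WT and DKI were 358 and 650 RPKM for *Csf1r*, 461 and 720 for *Itgam*, and 160 and 178 for *Ccr2*. On day 6 they were 273 and 468, 472 and 826, and 122 and 99.9. *Ccr2* overlapped between genotypes on both days. The part of these markers in the differences was not tested. Fewer cells of a type and less RNA per cell cannot be told apart in such bulk samples.

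Markers of other cells varied widely from library to library. The 6 neutrophil markers (*Ngp*, *Camp*, *Ltf*, *Elane*, *Mpo* and *Ly6g*) summed to 24.8, 515 and 4.04 RPKM in WT and to 401, 493 and 25.4 in DKI on day 3. On day 6 the sums were 165, 10.9 and 2.62 in WT and 507, 10.5 and 6.55 in DKI. *Hmox1* was at 150 RPKM in the DKI library of day 3 with the lowest sum and at 43.8 in the WT library with the highest. The 7 erythroid markers in the table summed to 4.91 to 49.96 RPKM on day 0, led by *Hba-a2* and *Slc4a1*, with *Hbb-bs* and *Klf1* also above 2 RPKM. On days 3 and 6 they summed to at most 0.113 RPKM, with every globin gene found in the table at 0. B cell markers (*Cd79a* and *Cd79b* above 2 RPKM) summed to at most 0.459 RPKM in WT and to 1.25 to 7.10 in DKI on day 3, and to at most 0.736 and 1.21 to 3.48 on day 6. T or NK cell markers (*Cd3g* and *Nkg7* above 2 RPKM) summed to at most 13.9 RPKM anywhere. Of 3 Kupffer cell markers in the table, *Cd5l* reached 29.9 RPKM in DKI replicate 3 of day 6 and the others were at most 0.032. The part of these cells in the differences between genotypes was not tested.

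Other genes of iron and heme handling were taken from 7 lists, on import and reduction, export, storage and turnover, mitochondrial iron, heme synthesis, heme breakdown and the transcription factors of these genes. Of the 31 genes tested on each day, limma and voom called 0 between genotypes on days 0, 3 and 6. At an unadjusted p under 0.05 there were 0, 5 and 7 by both methods. Over all genes limma had 44 of 9179, 2583 of 9740 and 2778 of 9842 on these days. Voom had 33 of 9169, 2478 of 9740 and 2672 of 9842. With the replicate block the numbers at an unadjusted p under 0.05 were 1, 11 and 8, and over all genes 352, 2688 and 3402. In that fit 1 of the 31 was called on day 3 and 1 on day 6, where 5.66% and 7.31% of all genes were. On day 3 it was *Hfe*, a partner of the transferrin receptor, at 35.2, 9.08 and 29.04 RPKM in WT and at 111, 40.5 and 78.3 in DKI. DKI was higher in each pair and the groups did not overlap (log2 difference 1.69, SE 0.18, adjusted p = 0.0245). On day 6 it was the transporter *Abcg2*, at 2.86, 4.46 and 4.35 RPKM in WT and at 5.58, 8.96 and 8.35 in DKI (0.81, SE 0.12, adjusted p = 0.038). The blocked interaction between day 0 and day 3 called 3 of 32, where 10.2% of all genes were called. These were *Hfe* and *Ncoa4*, with a positive change of the difference, and *Cpox*, whose difference went from 0.15 on day 0 to −0.70 on day 3. Other settings of limma also gave calls. With all 18 libraries in the fit they were *Hfe* on day 3 (adjusted p = 0.034) and, lower in DKI, *Iscu* on day 6 (−0.92, adjusted p = 0.00578). On day 6 *Iscu* was also called with a pseudocount of 0.1 (adjusted p = 0.049) and *Abcg2* after quantile normalization (adjusted p = 0.0472). Without DKI replicate 1 of day 3, *Abcg2* (1.17, adjusted p = 0.0189) and *Blvra* (0.59, adjusted p = 0.0453) were called higher on that day, and without DKI replicate 2 *Cp* was (3.67, adjusted p = 0.0302). *Cp* was at 25.1, 0.198 and 6.82 RPKM in DKI and at 0.0586 to 0.168 in WT, so the library left out was the DKI library nearest to WT. Between day 0 and day 3, 9 of 31 were called in WT and 7 of 32 in DKI, below the shares of all genes (43.1% and 34.2%), and 5 genes were in both, 5 of 9 and 5 of 7. The 4 named next were chosen after their values were seen. *Alas1*, the first enzyme of heme synthesis, rose from a mean of 36.3 to 116.6 RPKM in WT and from 36.2 to 175 in DKI. *Aco1*, which encodes iron-regulatory protein 1, rose from 11.1 to 34.2 and from 10.9 to 25.0. *Bach1*, a heme-sensing repressor of *Hmox1*, fell from 86.1 to 35.3 and from 85.0 to 41.6. The mitochondrial iron importer *Slc25a28* fell from 24.8 to 9.66 and from 26.3 to 10.5.

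By list, the 8 heme synthesis genes tested gave 2 calls, both higher, in WT, and 1 higher in DKI. The 5 mitochondrial genes gave 1 higher and 3 lower in WT, and 2 lower in DKI. Of the 6 storage and turnover genes, 1 was higher and 1 lower in WT, and 1 was higher in DKI. Import and reduction gave 0 calls in WT and 1 higher of 5 in DKI, *Hfe*, at a mean of 9.18 RPKM on day 0 and 76.6 on day 3. Heme breakdown gave 0 in WT and 1 higher of 2 in DKI, *Hmox2*, the constitutive heme oxygenase, from 34.0 to 73.8. The export list had 0 called in both genotypes, and the transcription factors gave 1 lower of 3 in each. *Hfe*, *Abcg2*, *Ncoa4*, *Cpox*, *Iscu*, *Blvra*, *Cp* and *Hmox2* were also named after their values were seen.

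The genes most like the called members were found by Pearson correlation of log2(RPKM + 1) over the 18 libraries, among 10417 genes. They share libraries, depth and groups, so the values are descriptions. *Hmox1* was nearest to *C5ar2* (0.91), *Cd300lb* (0.89) and *Dse* (0.84). *Steap3* was nearest to *Rxra* (0.95), *Slc46a1* (0.95) and *Cenpb* (0.95). *Slc40a1* was nearest to *Nr1h3* (0.91), *Npy* (0.91) and *Lmbrd2* (0.90). Within the set, the correlation of *Tfrc* with *Hmox1* was −0.17, with *Slc40a1* 0.13 and with *Slc11a1* 0.17, while that of *Fth1* with *Ftl1* was 0.81.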

How the data were processed

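RNA-seq libraries were made from total RNA with an mRNA kit and read on a HiSeq. The authors aligned reads to mm10 with Subread, counted them on genes with featureCounts and deposited RPKM values. Versions, strandedness and the treatment of multiply mapped reads are not given in the sources used here. Symbols came from RefSeq (GRCm38.p6), which matched 20082 identifiers and left 216 without a match.

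The deposited RPKM values fall on whole multiples of 1 read, so depth was read from single-exon receptor genes, and whole reads were recovered (tolerance 0.02 reads) for all 14975 genes with a value in at least 6 libraries. These reads served only the voom alternative, added after seeing the data.

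Genes with a mean above 2 RPKM in a group compared were fitted as log2(RPKM + 1) with limma 3.58.1 (trend) in R 4.3.3, on the libraries compared, with Benjamini-Hochberg adjustment over all genes tested. Genes were called at an adjusted p under 0.05 and a fold above 1.5. Differences of low genes are understated on this scale. Steps were tested on simulated data. Figures were made in Python 3.11.15 with matplotlib 3.10.9.

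Replicate numbers come from the sample titles. Same-numbered WT and DKI libraries were compared by their deviations from the group means. These correlated at 0.69 to 0.87 on day 0, 0.16 to 0.37 on day 3 and 0.34 to 0.41 on day 6. The main fits do not use these pairs, so each SE and p-value is unpaired unless the block is named. The blocked value is given where it changes a call.

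The members and lists were chosen with earlier results of these data known. The text names all members, *Stat5a* and *Stat5b*, listed iron and heme genes called between genotypes on day 3 or 6, the 3 genes most like each member called between genotypes, and markers above 2 RPKM, of which some are not reported here. Alternatives were another pseudocount, no filter, all 18 libraries, median centring, quantile normalization, the replicate block, leaving out each library, voom and the libraries of the later year alone.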

Additional observations from a re-analysis of the deposited data

How the results depend on the processing

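On day 3, where 3 genes were called higher in DKI, the number was 1 without a filter on low values, 1 by voom and 1 with the libraries of the later year alone, *Hmox1* each time, and leaving out 1 library gave 1 to 2. With all 18 libraries in the fit it was 3, with *Slc11a1* in place of *Steap3*. On day 6, where 2 were called, it was 1 without the filter, 4 with all 18 libraries, which added *Slc40a1* and *Slc11a1*, and 0 with the later year alone. Leaving out 1 library gave 0 to 2, and without WT replicate 2 the 2 were *Hmox1* and *Slc11a1*. The WT change from day 0 to day 3 gave 0 to 1 gene lower without 1 library. With the replicate block, 2 genes of the interaction between day 0 and day 3 were called, and the call of *Steap3* on day 3 was lost. The block changed no other call of the set. Differences near 0 changed sign: *Blvrb* on day 3 was 0.048 after median centring and between −0.39 and 0.20 without 1 library, *Slc48a1* between −0.17 and 0.36, and the WT change of *Slc11a1* between −0.45 and 0.83. In comparisons with no call in the set, the sign of a member differed in 23 of 117 alternative values on day 0, in 8 of 117 and 9 of 130 between days 3 and 6 in WT and DKI, and in 27 of 190 of the interaction between days 3 and 6. In the interaction between day 0 and day 3 it differed in 12 of 152 values of the 8 genes other than *Slc40a1* and *Hmox1*, and in 0 of those 2.

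Over all genes, the 723 calls of day 3 became 358 without the filter, 522 by voom, 1359 with all 18 libraries, 375 with the later year alone and 197 to 718 without 1 library. The 742 calls of day 6 became 187, 464, 1573, 36 and 95 to 991 in the same settings. The 3394 calls of DKI between day 0 and day 3 fell to as few as 1980 without 1 library. The 297 of the interaction became 94 by voom, 1040 with the block and 123 to 334 without 1 library. Median centring moved the median difference of all genes on day 6 from −0.17 to −0.02 and the calls that were higher in DKI from 268 of 742 to 323 of 608. For DKI between day 0 and day 3 it moved the median from −0.16 to 0.01 and the higher calls from 1297 of 3394 to 1743 of 3365. In these settings the set kept its 2 and 9 calls. Fits without a library hold fewer samples and the unfiltered fit tests more genes. The causes of the changes between settings were not tested.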
